A study of Mus musculus with 12 samples.

Results

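Brain tumours of mice labelled with the tumour genotype PDGFA were compared with normal mouse brain, 3 libraries against 3, over the 17812 of 49671 genes with enough counts to test. The members are the 6 libraries whose labels give the tumour genotype PDGFA or the tissue normal brain, 6 of the 12 libraries of the series. The other 6 are brain tumours of the genotypes IDH1_R132H and IDH1WT, 3 of each, and enter here to share the estimate of the spread between libraries and as a point of reference. Total RNA came from formalin-fixed, paraffin-embedded tissue.

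The PDGFA tumours came from mice of the genotype N::TVA with both copies floxed of several genes, Cdkn2a and Atrx among them. The normal brains carried the same floxed alleles and were TVA negative. TVA is the avian receptor through which RCAS viruses enter a cell, so cells without it cannot be infected by them. PDGFA is the A chain of platelet-derived growth factor. The labels name no virus, no Cre driver, no age, no sex, no region of the brain and no batch, and do not say that each library is a separate animal. The p-values therefore measure the spread between these libraries, which may in part be technical. Libraries are numbered 1 to 3 in each group in the order of their records, and the numbers pair nothing.

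Levels are CPM, counts divided by the TMM-scaled library size and given per 1000000. They are given for PDGFA tumours 1, 2 and 3 and for normal brains 1, 2 and 3 in that order, and the IDH1 tumours are given by their range. CPM is not divided by gene length, so levels are compared between libraries and not between genes. Differences are log2 fold changes, PDGFA tumours minus normal brain, from an edgeR quasi-likelihood fit of all 12 libraries and are printed ± the standard error of the fit. A gene was called when its p-value, adjusted over all genes tested by the Benjamini-Hochberg method, was under 0.05. Gene spans are on GRCm38.

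The total count was 9996171 to 10520489 in the PDGFA tumours and 8374528 to 11731050 in the normal brains. PDGFA tumour 1 stood apart from the other tumours. Mitochondrially encoded genes took 20.6% of its counts, against 1.94% and 10.01% in tumours 2 and 3 and 9.85% to 14.8% in the normal brains. On the first principal component of the 2000 most variable genes over the 12 libraries, which held 48.2% of their variance, it lay at 45.5, among the normal brains at 42.3 to 45.8. The other PDGFA tumours lay at 2.81 and -34.0, and the IDH1 tumours between -42.5 and -2.27. In IDH1_R132H tumour 3, which shares in the spread, ribosomal-RNA-like loci took 38.0% of the counts, against 1.22% to 3.12% in the other libraries. Normal brains 1 and 2 were close to each other, with a chi-square of 2.43 per gene, against 27.0 and 26.1 for the pairs with normal brain 3 and 74.1 to 137 for pairs of PDGFA tumours. That is above the value of sampling noise alone, and they were kept as separate samples. It does not show whether they are separate animals. With normal brains 1 and 2 summed as 1 sample, 0 genes were called. Over the 10844 genes with a mean log2 CPM of at least 3, the median SD of log2 CPM was 0.295 in the PDGFA tumours and 0.132 in the normal brains. Of all genes tested, 75.3% had the larger SD in the tumours. Atrx, floxed in both groups, was at 299, 288 and 286 CPM in the PDGFA tumours and 329, 336 and 262 CPM in the normal brains, within the same range (log2 fold change -0.085 ± 0.16, edgeR adjusted p = 0.914). The 20 pan-neuronal markers were detected in every normal brain and tumour, with a summed level of 13694, 13483 and 12448 CPM and of 15652, 11921 and 8319 CPM.

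Platelet-derived growth factor A binds the receptor tyrosine kinase PDGFRA, and in the brain this receptor marks oligodendrocyte precursor cells, which divide in response to the ligand. Signalling runs from the receptor through the RAS-MAPK and PI3K-AKT cascades to genes of the cell cycle. Tumours driven by the A chain are used as models of proneural glioma, the subtype that shares many genes with oligodendrocyte precursors, including Olig2, Sox10 and Pdgfra. Most cells of the mature brain do not divide.

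Genes of cell division made up the largest group of those that rose in the PDGFA tumours, and fewer genes fell than rose. Of 17812 genes tested, 54 were called (0.303%), 46 higher (0.258%) and 8 lower (0.0449%). All 54 had tumour values that did not overlap with the normal values, as had 15.8% of all genes tested, and 52 differed at least 2-fold. By known roles, assigned after the calls were seen, 24 of the 46 higher genes act in mitosis or DNA replication, 4 in MHC class I presentation, 4 in vessels and 4 in the matrix and adhesion. PDGFA tumour 3 was the highest of the 3 tumours in 42 of the 46 higher genes, among them all 24 of cell division, and tumour 1 was the lowest in 32.

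The summed level of the 24 cell division genes was 210.2, 310.5 and 1172 CPM in tumours 1 to 3 and 23.8, 30.5 and 21.6 CPM in the normal brains. The log2 fold changes of these genes ran from 2.58 to 6.34, with a median of 4.13. The other 22 higher genes ran from 0.90 to 5.63, with a median of 1.84, and their summed level was 808, 868 and 1566 CPM against 303, 301 and 323. In bulk tissue more cells of a type and more RNA per cell cannot be told apart. The tumours spanned a wider range in the cell division genes than in the rest of the higher genes.

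**Figure D1:**
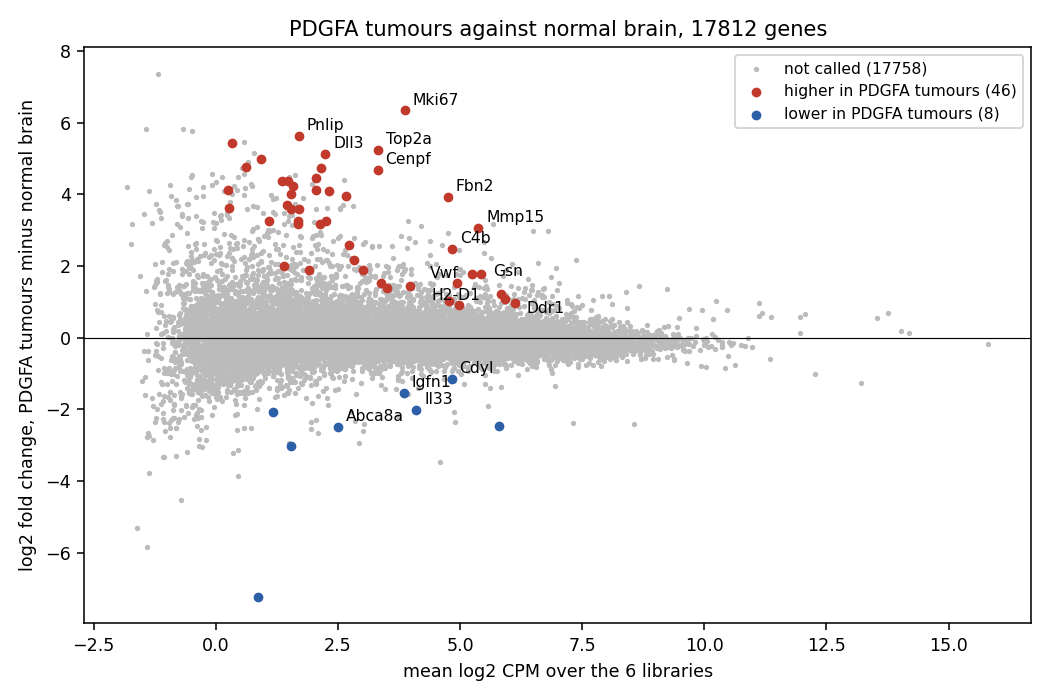
Log2 fold change (PDGFA tumours minus normal brain) against the mean log2 CPM of the 6 libraries, 1 point per gene for 17812 genes, with the 46 genes called higher in red and the 8 called lower in blue. Most called genes lie above 0, and Mki67, at 6.34, is the highest of the called genes.

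These calls lie close to the threshold. Their adjusted p-values fell between 0.0430 and 0.0489, and 1887 genes (10.6%) had an unadjusted p under 0.05 in edgeR, 1310 higher and 577 lower. Leaving out a single library changed the count of calls. It was 846 of the 17812 genes without PDGFA tumour 1, the share to set beside the list counts without tumour 1 given below. The count was 12 without tumour 2 and 1 without tumour 3. It was 0, 0 and 1 without normal brains 1, 2 and 3, 1, 0 and 1 without IDH1_R132H tumours 1, 2 and 3, and 1 without IDH1WT tumour 3. Without IDH1WT tumours 1 and 2 it was 71 and 58. DESeq2 called 484 genes, and edgeR on the 6 compared libraries alone called 0, with 1786 at an unadjusted p under 0.05. Of the 846 genes called without tumour 1, 80.0% were higher, against 85.2% of the 54. With sample quality weights it was 73.6% of 439 genes, and on PDGFA tumours 2 and 3 and the normal brains alone 68.6% of 1313. All 54 genes kept their direction in every one of these fits.

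Mitosis genes led the lists by number called. Of 26 listed genes, all tested, 8 rose, and in 23 all 3 tumours lay above all 3 normal brains (8.23% of all genes tested did). The list's median log2 fold change was 4.04, against 0.003 over all genes. The 8 were Mki67, Top2a, Cenpf, Cenpe, Foxm1, Knl1, Prc1 and Nusap1. Without tumour 1, 24 of 26 were called. Without PDGFA tumours 2 and 3 it was 2 and 1. It was 0 without any 1 normal brain, any 1 IDH1_R132H tumour or IDH1WT tumour 3, and 11 and 9 without IDH1WT tumours 1 and 2.

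Mki67 (chromosome 7, 135689784 to 135716361) encodes the Ki-67 antigen, which coats mitotic chromosomes and is used to count dividing cells. It stood at 65.4, 67.9 and 338 CPM in the tumours and 0.808, 3.29 and 1.66 CPM in the normal brains. Every tumour was far above every normal brain, and tumour 3 was the highest. The means were 157 ± 157 and 1.92 ± 1.26 CPM (SD, n = 3 each), the log2 fold change was 6.34 ± 0.85 and edgeR's adjusted p = 0.0430. It was the 1 gene still called without tumour 3, at 5.11 with adjusted p = 0.0293. The IDH1 tumours held 51.8 to 182 CPM, with a median of 113.

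Top2a (chromosome 11, 98992943 to 99024189), the topoisomerase that untangles chromosomes before they part, was at 18.4, 41.9 and 152 CPM against 1.27, 2.20 and 2.10. Cenpf (chromosome 1, 189640606 to 189688086), a protein of the outer kinetochore, was at 13.9, 40.4 and 119 CPM against 2.19, 2.85 and 1.75. In both genes the tumours were ordered 1, 2, 3 from low to high, with no overlap with the normal brains. The log2 fold changes were 5.24 ± 0.77 and 4.67 ± 0.76, with edgeR adjusted p = 0.0430 for each. Cenpe (chromosome 3, 135212537 to 135273611), the kinetochore motor that moves chromosomes to the spindle's equator, was at 14.2, 13.4 and 51.8 CPM against 2.31, 1.87 and 1.05 (log2 fold change 3.94 ± 0.67). Here tumours 1 and 2 were alike and tumour 3 was apart.

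Among the other genes of the list, Foxm1, a transcription factor of the G2 and M phases, was at 6.15, 13.2 and 50.3 CPM against 1.501, 1.65 and 0.963. Cdk1, the mitotic kinase, and Aurkb, the kinase of the chromosomal passenger complex, missed the threshold. Cdk1 was at 1.68, 5.31 and 24.02 CPM against 0.346, 0.439 and 0.0875 (adjusted p = 0.0531 by edgeR), and Aurkb at 2.24, 2.65 and 12.8 against 0.462, 0.329 and 0.175 (adjusted p = 0.0611). Both had higher values in every tumour, at few counts in the normal brains. The 3 genes whose groups overlapped were Ccnb1 and Ccnb2, cyclins B1 and B2, and Bub1b, a checkpoint kinase. Tumour 1 stood at 1.23, 1.23 and 2.35 CPM in these genes and tumour 3 at 14.0, 11.5 and 26.6.

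Mitotic genes are known to share promoter elements, the CHR (cell cycle homology region), read by the MuvB complexes, and the CCAAT box, bound by NF-Y. The promoters of the 4 mitosis genes with the smallest p are shown because these genes moved together. They run 5′ to 3′ on the gene's strand, from 250 bases before the start to 50 after it, are taken from RefSeq on GRCm38.p6, and have CHR letters and CCAAT boxes in capitals.
Mki67 (chr7:135716330-135716629, minus strand): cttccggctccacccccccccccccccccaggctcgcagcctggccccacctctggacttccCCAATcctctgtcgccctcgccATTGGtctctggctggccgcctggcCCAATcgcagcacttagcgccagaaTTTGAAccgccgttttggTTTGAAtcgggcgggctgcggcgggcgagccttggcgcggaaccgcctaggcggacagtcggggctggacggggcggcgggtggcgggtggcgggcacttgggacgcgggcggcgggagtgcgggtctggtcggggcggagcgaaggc
Top2a (chr11:99024140-99024439, minus strand): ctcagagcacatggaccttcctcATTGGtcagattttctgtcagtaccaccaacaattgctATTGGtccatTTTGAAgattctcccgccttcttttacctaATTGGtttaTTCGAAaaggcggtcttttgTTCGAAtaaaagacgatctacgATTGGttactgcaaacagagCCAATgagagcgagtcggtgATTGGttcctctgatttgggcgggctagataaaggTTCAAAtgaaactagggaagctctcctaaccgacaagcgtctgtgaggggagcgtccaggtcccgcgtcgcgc
Cenpf (chr1:189688037-189688336, minus strand): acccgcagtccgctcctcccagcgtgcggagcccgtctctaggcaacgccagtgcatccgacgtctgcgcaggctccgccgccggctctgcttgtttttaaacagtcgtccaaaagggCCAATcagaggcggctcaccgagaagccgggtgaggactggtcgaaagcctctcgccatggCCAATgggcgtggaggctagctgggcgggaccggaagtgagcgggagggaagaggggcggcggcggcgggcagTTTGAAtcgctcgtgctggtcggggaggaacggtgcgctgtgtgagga
Cenpe (chr3:135212313-135212612, plus strand): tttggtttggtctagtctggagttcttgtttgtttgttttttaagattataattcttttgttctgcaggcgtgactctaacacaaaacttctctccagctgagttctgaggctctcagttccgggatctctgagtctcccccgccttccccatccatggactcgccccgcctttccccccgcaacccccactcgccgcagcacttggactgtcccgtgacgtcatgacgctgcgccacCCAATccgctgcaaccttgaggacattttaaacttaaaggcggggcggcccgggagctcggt

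The search was for TTTGAA and TTCGAA (CHR) and for CCAAT, on both strands, and no motif holds another. Top2a had 2 copies of TTTGAA, 2 of TTCGAA and 6 of CCAAT, the most of the 4. Mki67 had 2 copies of TTTGAA and 3 of CCAAT, Cenpf 1 and 2. Cenpe had 1 CCAAT and neither form of the CHR in this window. Of the 26 mitosis genes 21 matched a promoter. Ccna2, Aurkb, Kif20a, Tpx2 and Foxm1 did not. A CHR form was in 17 of the 21 (81.0%), against 19.4% of all 27025 promoters of this length and 13.5% of the 11897 of tested genes. CCAAT was in 16 of the 21 (76.2%), against 37.9% and 38.3%. Of the 35 genes called higher that matched, 11 held a CHR form (31.4%) and 21 held CCAAT (60.0%). These are matches of letters and were not tested for binding.

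DNA replication genes rose in part. Of 24 tested, 5 rose and none fell, and the median log2 fold change was 1.62. In 16 all tumours were above all normal brains (66.7%, against 8.23% of all genes). Uhrf1, which recruits the maintenance DNA methyltransferase to replicated DNA, was at 4.36, 7.38 and 23.7 CPM against 0.462, 0.878 and 0.788 (chromosome 17, 56303321 to 56323486; log2 fold change 4.02 ± 0.65, edgeR adjusted p = 0.0430). Rrm2, the small subunit of ribonucleotide reductase, was at 3.13, 10.03 and 29.0 CPM against 0.346, 0.878 and 0.963 (log2 fold change 4.22 ± 0.77). In both, tumour 1 was the lowest tumour and still above each normal brain.

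Mcm6, a subunit of the replicative helicase, was at 6.48, 7.54 and 34.6 CPM against 1.27, 2.09 and 1.66 (log2 fold change 3.27 ± 0.61). Pole, the catalytic subunit of the leading-strand polymerase, was at 11.4, 9.62 and 29.3 CPM against 3.23, 3.29 and 1.93, and Tk1, thymidine kinase 1, at 1.23, 2.65 and 6.62 against 0.231, 0.439 and 0.175. Tumour 3 was the highest in all 3 genes. The sliding clamp Pcna, at 7.04, 5.55 and 18.3 CPM against 3.46, 4.61 and 7.44, overlapped with the normal brains and was not called (adjusted p = 0.454 by edgeR). Without tumour 1, 17 of the 24 were called.

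A further 11 called genes of cell division were on no list and are named after their values were seen. They were Clspn, Ticrr and Pif1 of replication and its checkpoint, the kinesins Kif15 and Kif18b, Kntc1 and Cenpi of the kinetochore, Ncaph of condensin, the separase Espl1, Cdca2 and the phosphatase Cdc25c. Clspn was at 6.71, 4.97 and 17.3 CPM against 0.924, 0.768 and 0.700, and Espl1 at 6.71, 8.04 and 25.5 against 1.62, 1.32 and 1.49. The lowest tumour was above the highest normal brain in each of the 11.

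G1 cyclin, CDK and E2F genes had higher values without calls. None of 21 tested was called, and the median log2 fold change was 1.22; 13 had an unadjusted p under 0.05 and a higher value, as had 7.35% of all genes. Ccnd1, cyclin D1, which links growth factor signals to the cell cycle, was at 77.5, 201 and 631 CPM against 28.6, 35.2 and 51.7. The tumours did not overlap with the normal brains, with a log2 fold change of 2.97 ± 0.66 and edgeR adjusted p = 0.0842. Ccnd2 was at 92.8, 254 and 464 CPM against 76.9, 76.5 and 57.1 (log2 fold change 1.95 ± 0.48, adjusted p = 0.119). Cdk4, the kinase of the D cyclins, was at 24.04, 36.9 and 92.2 CPM against 20.8, 22.2 and 22.8, with tumour 1 near the normal brains. Without tumour 1, 11 of 21 were called, Ccnd1 at 3.43 (adjusted p = 0.00648). Cdkn2a had counts of 2, 0 and 11 in the tumours and of 1 in each normal brain, too few to test. Counts over a whole gene do not show whether its floxed part was removed.

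Repair and p53 genes gave the same kind of result. Among 19 homologous recombination and Fanconi genes none was called, and 11 had all tumours above all normal brains (57.9%, against 8.23% of all genes). Brca1, central to recombination repair, was at 5.48, 8.21 and 20.9 CPM against 2.54, 1.87 and 2.10 (log2 fold change 2.41 ± 0.49, edgeR adjusted p = 0.0650). Among 19 p53 target genes none was called, and 9 lay above without overlap (47.4%, against 8.23% of all genes). Cdkn1a, the cell cycle inhibitor p21, was at 18.3, 24.5 and 77.1 CPM against 5.197, 6.26 and 9.63 (log2 fold change 2.5 ± 0.63, adjusted p = 0.125). Eda2r, the ectodysplasin A2 receptor, was at 1.01, 14.3 and 61.7 CPM against 1.15, 1.65 and 1.14: tumours 2 and 3 were above the normal brains and tumour 1 was not. Without tumour 1, 8 and 6 of the 19 genes of these lists were called, against 846 of all 17812 genes.

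Of the PDGF ligands and receptors none of 7 was called. Pdgfa itself (chromosome 5, 138976014 to 138997370) was at 57.1, 40.4 and 96.7 CPM in the tumours and 30.5, 28.9 and 28.1 CPM in the normal brains. All 3 tumours were above all 3 normal brains. The means were 64.7 ± 28.9 and 29.1 ± 1.22 CPM (SD, n = 3 each) and the log2 fold change 1.15 ± 0.28 (edgeR adjusted p = 0.119), not past the threshold. The IDH1 tumours held 42.4 to 78.7 CPM, with a median of 51.3. The PDGFA tumours minus the IDH1 tumours gave 0.26 ± 0.24, adjusted p = 0.734. These are counts over the mouse gene and do not tell a delivered sequence from the gene's own.

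Pdgfra (chromosome 5, 75152292 to 75198215), the receptor, was at 81.2, 247 and 814 CPM against 46.9, 49.8 and 49.0. The tumours did not overlap with the normal brains and were far apart from each other, with a log2 fold change of 2.97 ± 0.70 (edgeR adjusted p = 0.102). Without tumour 1 it was 3.45 (adjusted p = 0.00717), and Pdgfa 1.23 (adjusted p = 0.0417), both called. Pdgfrb, the receptor of pericytes, was at 23.3, 23.4 and 39.3 CPM against 23.9, 20.6 and 27.6 and overlapped. Pdgfb, Pdgfc, Pdgfd and Pdgfrl had log2 fold changes between -0.54 and 0.50.

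Downstream of the receptor, none of 18 RTK and MAPK feedback genes was called (median log2 fold change 0.49). In 6 all tumours were above all normal brains (33.3%, against 8.23% of all genes). Dusp6, the phosphatase of ERK, was at 65.8, 66.1 and 92.6 CPM against 37.9, 43.2 and 42.6 (log2 fold change 0.86 ± 0.21, edgeR adjusted p = 0.110). The feedback inhibitors Spry1 and Spry4 were at 13.8, 23.9 and 63.4 and at 21.02, 56.6 and 117 CPM, against 8.31, 8.12 and 10.3 and 20.3, 20.5 and 17.4. Myc was at 4.02, 5.80 and 17.4 CPM against 1.501, 1.76 and 2.01 (adjusted p = 0.0697). In these 4 genes the lowest tumour was above the highest normal brain. Etv5, Spred1 and Dusp4, other targets or inhibitors of the cascade, had log2 fold changes of -0.084, -0.083 and -0.079. Without tumour 1, 6 of the 18 were called higher and 1 lower, Dusp5, a nuclear phosphatase of ERK, at -1.41 (edgeR adjusted p = 0.0126). Of all 17812 genes 677 were called higher and 169 lower without tumour 1. The 23 PI3K, AKT and mTOR genes had a median of 0.026 with none called, and these cascades act mainly through phosphorylation, which counts do not measure.

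Oligodendrocyte precursor markers had higher values in the tumours, in an order that followed the tumours. Of 23 tested, 1 rose (Dll3), and the median log2 fold change was 2.02. In 13 all tumours were above all normal brains (56.5%, against 8.23% of all genes). The median difference from the normal brains on log2 CPM was 0.54, 1.45 and 2.87 in tumours 1 to 3. The summed level was 1110.4, 2180.4 and 6162 CPM against 1166, 1172 and 1128, so in tumour 1 it did not exceed the normal brains. Dll3 (chromosome 7, 28293553 to 28302238), a divergent Notch ligand, was at 5.48, 19.6 and 72.2 CPM against 0.808, 0.878 and 1.05. Each tumour was above each normal brain, with tumour 3 the highest (log2 fold change 5.12 ± 0.92, edgeR adjusted p = 0.0472).

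Olig2 (chromosome 16, 91225457 to 91228677), the lineage's transcription factor, was at 26.6, 64.2 and 156 CPM against 12.8, 9.66 and 10.4. It lay just outside the threshold, with a log2 fold change of 2.91 ± 0.55 and edgeR adjusted p = 0.0502. Sox10 (chromosome 15, 79154908 to 79165240) was at 38.6, 49.7 and 154 CPM against 16.6, 14.3 and 13.7, and Cspg4 (chromosome 9, 56865033 to 56899870), which encodes the surface proteoglycan NG2, at 51.1, 104 and 389.9 against 20.8, 20.1 and 20.1. Neither overlapped with the normal brains, with log2 fold changes of 2.44 ± 0.50 and 3.16 ± 0.66 and adjusted p = 0.0697 for each. Gpr17, a receptor of precursors about to differentiate, was at 18.7, 113 and 249 CPM against 25.6, 22.3 and 25.8, with tumour 1 under the normal brains. Ptprz1 and Bcan, further surface and matrix genes, were also under the normal brains in tumour 1, at 137 and 55.2 CPM against lowest normal values of 257 and 111. Without tumour 1, 13 of 23 were called.

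The transcription factors of glia and progenitors (26 tested) had a median log2 fold change of 0.62 with none called. Zfp488, an oligodendrocyte factor, was at 4.47, 11.8 and 40.8 CPM against 1.62, 1.65 and 1.40 (log2 fold change 3.61 ± 0.76, edgeR adjusted p = 0.0698). Sox4 and Sox11, factors of immature neural cells, were at 22.9, 67.1 and 115 and 36.1, 116 and 148 CPM, against 18.1, 20.5 and 19.2 and 39.7, 40.1 and 28.9. Sox4 did not overlap, and Sox11 overlapped through tumour 1. Of 21 proneural subtype genes 1 rose (Dll3), with a median of 1.13. None of 16 classical genes (median -0.077) and none of 23 mesenchymal genes (median 0.58) was called. Cd44, a mesenchymal marker, was at 4.58, 44.2 and 50.3 CPM against 6.12, 10.8 and 7.96 and Nes, which encodes the progenitor filament nestin, at 27.9, 40.2 and 134 against 10.9, 12.2 and 10.7. Cd44 was high in tumours 2 and 3 and below the normal brains in tumour 1. Nes was above them in all 3 (log2 fold change 2.59 ± 0.52, adjusted p = 0.0635). Without tumour 1 there were 12 of 26 transcription factors, 10 of 21 proneural, 3 of 16 classical and 7 of 23 mesenchymal genes called. Over all genes it was 846 of 17812. The classical median turned to 0.18.

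Of 14 MHC class I and peptide loading genes tested, 4 rose and none fell, with a median log2 fold change of 0.91. In 8 of the 14 all 3 tumours were above all 3 normal brains (57.1%, against 8.23% of all genes). Without tumour 1 there were 6 called, against 846 of all 17812 genes. H2-K1 (chromosome 17, 33996017 to 34000347) was at 20.2, 25.9 and 31.0 CPM against 7.85, 10.2 and 10.5 and H2-D1 (chromosome 17, 35262730 to 35267499) at 85.9, 85.5 and 93.3 against 30.03, 38.7 and 44.5. Both are classical heavy chains that show peptides to CD8 T cells. In both genes every tumour was above every normal brain. The tumours were alike in H2-D1, while H2-K1 rose from tumour 1 to tumour 3. The log2 fold changes were 1.43 ± 0.24 and 1.22 ± 0.22, with edgeR adjusted p = 0.0430 and 0.0468. H2-Q4, a nonclassical heavy chain, was at 9.39, 5.31 and 6.07 CPM against 1.96, 1.76 and 1.84, and here tumour 1 was the highest. Psmb8, a subunit of the immunoproteasome, was at 3.69, 3.81 and 7.16 CPM against 1.04, 1.21 and 1.40.

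The H2 genes are close copies of each other, so how reads were split between them is uncertain. Nlrc5, the activator of MHC class I genes, was at 10.5, 8.95 and 9.52 CPM against 2.77, 2.74 and 1.75 without overlap (adjusted p = 0.119 by edgeR). B2m, the light chain, was at 29.7, 50.7 and 63.5 CPM against 20.0, 29.5 and 33.1, overlapping through tumour 1. Among 18 interferon response genes none was called, the median was 1.0 and 9 lay above without overlap (50%, against 8.23% of all genes). Gbp3, a guanylate binding protein, was at 7.49, 7.29 and 6.25 CPM against 2.31, 2.63 and 1.93 (log2 fold change 1.61 ± 0.35, adjusted p = 0.0737). Of the 16 T and NK cell markers 6 had counts enough to test and none was called. Cd3e, Cd3d and Cd8a had counts of 0 to 3 in the tumours and of 0 to 6 in the normal brains.

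Complement and microglia genes split the tumours. C4b (chromosome 17, 34728380 to 34743882), complement component 4, was the 1 of 13 complement genes that rose, at 24.04, 79.9 and 118 CPM against 11.9, 12.1 and 15.7. Tumour 1 was the lowest tumour and still above the normal brains (log2 fold change 2.48 ± 0.45, edgeR adjusted p = 0.0472). C3 was at 1.79, 20.9 and 15.95 CPM against 1.39, 1.76 and 2.10 and C1qc, a chain of C1q made by microglia, at 3.47, 30.1 and 43.5 against 6.93, 7.46 and 14.5. Tumours 2 and 3 were above the normal brains in both genes and tumour 1 was within or below them.

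None of 23 microglia and macrophage markers was called. Their median difference from the normal brains was -1.72, 1.15 and 1.3 in tumours 1 to 3, and 21 of 23 were below every normal brain in tumour 1 while 19 and 20 were above in tumours 2 and 3. Over all genes tested 32.4% were below in tumour 1, and 31.9% and 37.9% above in tumours 2 and 3. The summed level was 71.6, 507 and 618 CPM against 202, 219 and 333, and none of the 23 was at 0. Csf1r, the receptor that microglia need to live, was at 5.70, 61.1 and 70.2 CPM against 30.6, 31.5 and 49.0. Aif1, which encodes IBA1, was at 4.14, 5.47 and 5.44 CPM against 3.23, 4.17 and 4.55, and Lyz2, lysozyme of myeloid cells, at 1.68, 43.5 and 43.8 against 2.77, 3.84 and 7.18. Aif1 overlapped between the groups. Csf1r and Lyz2 showed the split, with tumour 1 lowest. Without tumour 1, 10 of 23 microglia markers and 7 of 13 complement genes were called, Lyz2 at 3.22 (adjusted p = 0.00337).

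Vessel genes rose in part, and tumour 1 was the lowest tumour in 1 of the 4 that did. Vwf (chromosome 6, 125546774 to 125686679), the clotting factor stored in endothelial cells, was at 78.5, 52.97 and 80.3 CPM against 24.5, 18.2 and 19.5. Tumours 1 and 3 were alike and tumour 2 was lower, each above all normal brains (log2 fold change 1.77 ± 0.27, edgeR adjusted p = 0.0430). Mcam (chromosome 9, 44134469 to 44142727), an adhesion molecule of vessel walls, was at 44.6, 37.1 and 77.2 CPM against 17.8, 18.7 and 18.7, and Angpt2 (chromosome 8, 18690263 to 18741562), angiopoietin 2, released where vessels remodel, at 7.16, 4.56 and 18.5 against 0.577, 1.32 and 1.23. Their log2 fold changes were 1.53 ± 0.27 and 3.24 ± 0.57. Apold1, an early response gene of endothelial cells, was at 14.6, 18.3 and 19.8 CPM against 7.97, 5.71 and 4.73 (log2 fold change 1.52 ± 0.22). None of these genes overlapped between the groups.

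Of 17 endothelial markers only Vwf rose, and the list's median was 0.44. Pecam1 and Cldn5, general endothelial markers, had log2 fold changes of 0.55 ± 0.22 and 0.77 ± 0.29, not called. Of 14 angiogenic genes Mcam and Angpt2 rose, and 9 lay above without overlap (64.3%, against 8.23% of all genes). Kdr, the main receptor of VEGF, was at 29.5, 17.2 and 32.7 CPM against 12.1, 13.4 and 13.2 (adjusted p = 0.0789 by edgeR), and Vegfa at 68.4, 68.1 and 139 against 50.6, 50.05 and 48.9 (adjusted p = 0.463). None of 13 pericyte and smooth muscle genes was called (median 0.21). Without tumour 1 the endothelial and angiogenic lists had 2 of 17 and 5 of 14 genes called, against 846 of all 17812 genes.

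Of the 22 basement membrane and collagen genes none was called, and the median was 0.80. In this list 8 lay above without overlap (36.4%, against 8.23% of all genes). Another 4 genes of the matrix and adhesion were called and are on no list. They were grouped after the calls were seen, and their log2 fold changes ran from 0.96 to 3.94. Fbn2, fibrillin 2 of developing connective tissue, was at 38.6, 70.5 and 257 CPM against 7.85, 8.23 and 7.79. The normal brains were nearly equal and every tumour was well above them (log2 fold change 3.94 ± 0.65, edgeR adjusted p = 0.0430). Mmp15 (chromosome 8, 95352268 to 95375080), a membrane-bound matrix metalloproteinase, was at 39.6, 89.2 and 292 CPM against 17.0, 15.9 and 17.5 (log2 fold change 3.06 ± 0.57, adjusted p = 0.0489), while the IDH1 tumours held 116 to 339.8 CPM, with a median of 262. Ccn1 (chromosome 3, 145646976 to 145649981), a secreted matricellular protein, ran the other way among the tumours, at 21.5, 16.8 and 9.79 CPM against 4.27, 6.37 and 2.36 (log2 fold change 1.89 ± 0.35).

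Gsn (chromosome 2, 35256380 to 35307892), gelsolin, which severs actin filaments, was at 138, 49.5 and 64.3 CPM against 21.1, 23.05 and 28.6, highest in tumour 1 (log2 fold change 1.79 ± 0.31). Ddr1, a collagen receptor kinase also found in oligodendrocytes, was at 83.3, 95.7 and 114 CPM against 49.7, 45.1 and 55.4, and Slc7a5, a transporter of large neutral amino acids, at 78.7, 83.8 and 102 against 43.5, 41.7 and 38.9. Both were close to equal across the tumours and without overlap. Pnlip, pancreatic lipase, was at 5.37, 13.1 and 53.8 CPM against 0.346, 0.439 and 0.613, and the IDH1 tumours held 22.3 to 83.4 CPM, with a median of 47.4. Nid2, nidogen 2, of the basement membrane list, was at 10.5, 11.9 and 21.9 CPM against 3.93, 3.84 and 3.76 (log2 fold change 1.94 ± 0.37, adjusted p = 0.0507 by edgeR).

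**Figure D2:**
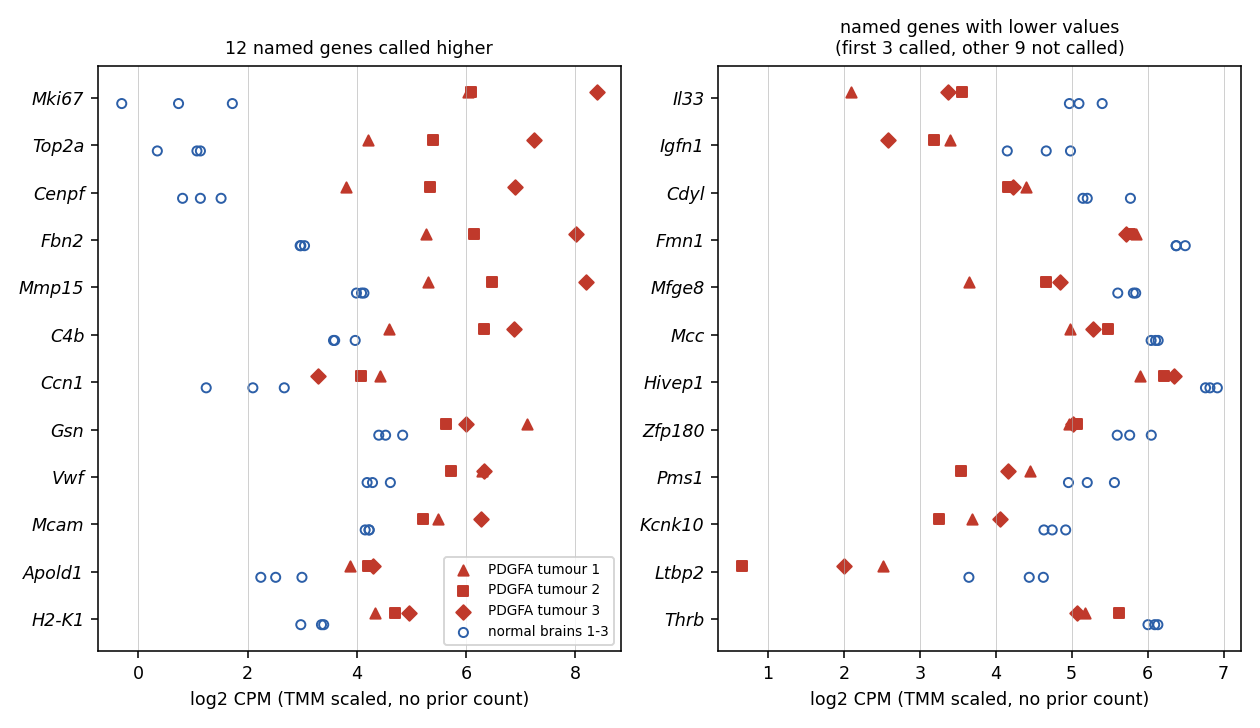
Levels (log2 CPM, TMM scaled) of 24 named genes in each PDGFA tumour (filled red shapes) and each normal brain (open blue circles), with 12 genes called higher on the left and 12 with lower values on the right, of which Il33, Igfn1 and Cdyl were called. No overlap of tumour and normal values was a condition for naming these 24 genes. Tumour 3 is furthest from the normal brains in Mki67, Top2a, Cenpf, Fbn2 and Mmp15.

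The 8 lower genes shared no list. Il33 (chromosome 19, 29925114 to 29960718), an alarmin cytokine that glia hold in the nucleus, was at 4.25, 11.8 and 10.3 CPM against 34.2, 42.3 and 31.3. The highest tumour was well below the lowest normal brain, and tumour 1 was the lowest (log2 fold change -2.02 ± 0.34, edgeR adjusted p = 0.0430). Abca8a (chromosome 11, 110025634 to 110095978), a lipid transporter of the ABC family, was at 1.34, 2.98 and 2.54 CPM against 14.4, 12.3 and 12.7 (log2 fold change -2.5 ± 0.40, adjusted p = 0.0430). Cdyl (chromosome 13, 35659833 to 35874063), a chromatin corepressor, was at 21.1, 17.8 and 18.7 CPM against 35.5, 36.9 and 54.7 (log2 fold change -1.14 ± 0.19), with the tumours close to one another. None of the 3 genes overlapped between the groups.

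Igfn1 (chromosome 1, 135953578 to 136006342), an immunoglobulin and fibronectin domain protein, was at 10.5, 9.12 and 5.98 CPM against 31.6, 25.4 and 17.8 (log2 fold change -1.55 ± 0.26). The other 4 were the pseudogene Nlrp5-ps, the gene models Gm45426 and A830036E02Rik and ENSMUSG00000095041, which has no name in the annotation used. ENSMUSG00000095041 was at 32.0, 19.5 and 21.2 CPM against 187, 104 and 111, with every tumour well below every normal brain (log2 fold change -2.47 ± 0.36, edgeR adjusted p = 0.0430). It had the smallest p of the 8 and was the 1 gene still called without IDH1WT tumour 3. A830036E02Rik was at 0, 0.0829 and 0.363 CPM against 36.0, 40.2 and 0.525, so its difference lies in normal brains 1 and 2 alone. The rule for naming genes also gave 9 genes with lower tumour values that were not called. Among them Mfge8, an astrocyte-made bridge for phagocytosis, was at 12.5, 25.3 and 28.7 CPM against 57.4, 48.7 and 56.2 (adjusted p = 0.0519 by edgeR), and Thrb, a thyroid hormone receptor, at 36.2, 49.2 and 33.6 against 68.3, 64.2 and 70.3 (adjusted p = 0.0845). The others were Fmn1, Mcc, Hivep1, Zfp180, Pms1, Kcnk10 and Ltbp2, with log2 fold changes from -2.4 to -0.64.

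Among genes with a symbol and a mean log2 CPM of at least 3, those with the widest gap on log2 CPM, from the nearest tumour to the nearest normal brain, were Mki67, Top2a, Cenpf, Fbn2 and Enpp6 upwards. Downwards they were Il33, Ltbp2, Pygm, Kl and Svep1. The unnamed ENSMUSG00000095041 had a wider gap than Il33, 1.7 against 1.4. Enpp6, an enzyme of newly forming oligodendrocytes, was at 20.9, 25.9 and 28 CPM against 6.47, 5.82 and 7.70, alike in the 3 tumours (log2 fold change 1.9 ± 0.52, edgeR adjusted p = 0.152). Pygm, muscle-type glycogen phosphorylase, which astrocytes also make, was at 7.38, 9.04 and 9.97 CPM against 18.6, 19.4 and 21 (log2 fold change -1.16 ± 0.29, adjusted p = 0.125).

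Astrocyte markers were furthest below the normal brains in tumour 1. None of 18 was called, and the median log2 fold change was -0.58. The median difference from the normal brains was -3.0, 0.068 and -0.35 in tumours 1 to 3. The markers below every normal brain numbered 18, 7 and 11 in tumours 1 to 3, against 32.4%, 32.5% and 36.3% of all genes. Those above every normal brain numbered 8 and 5 in tumours 2 and 3, against 31.9% and 37.9% of all genes. In 6 markers all tumours were below all normal brains (33.3%, against 7.54% of all genes). The summed level was 1191, 6746 and 4689 CPM against 5586, 5654 and 5539.9, and none of the 18 was at 0. Slc1a3, the glutamate transporter GLAST, was at 31.2, 558 and 462 CPM against 402, 411 and 433, Aqp4, the water channel of astrocyte endfeet, at 15.7, 238 and 207 against 121, 135 and 140.1, and Gja1, connexin 43, at 12.2, 272 and 121 against 140.2, 155 and 169. Tumour 1 was far below every normal brain in each. Tumour 2 was above every normal brain in the 3 genes. Tumour 3 was above them in Slc1a3 and Aqp4 and below them in Gja1. These 3 genes were named after their values were seen and do not stand for the whole list in tumours 2 and 3.

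Reactive astrocyte genes had median differences from the normal brains of -0.57, 1.66 and 2.2 in tumours 1 to 3. None of 14 was called, the median log2 fold change was 1.72, and without tumour 1 there were 9. Gfap (chromosome 11, 102887336 to 102900912), the astrocyte filament that rises in reactive tissue, was at 68.0, 676 and 540.2 CPM against 78.2, 81.4 and 128. Tumours 2 and 3 were several times above the normal brains and tumour 1 was below them (log2 fold change 2.16 ± 0.65, edgeR adjusted p = 0.204, and 2.67 with adjusted p = 0.00631 without tumour 1). Vim, vimentin, was at 34.9, 127 and 252 CPM against 24.7, 43.6 and 43.3, and Lcn2, lipocalin 2, at 0.335, 10.7 and 13.9 against 0.577, 0.110 and 0.350.

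**Figure D3:**
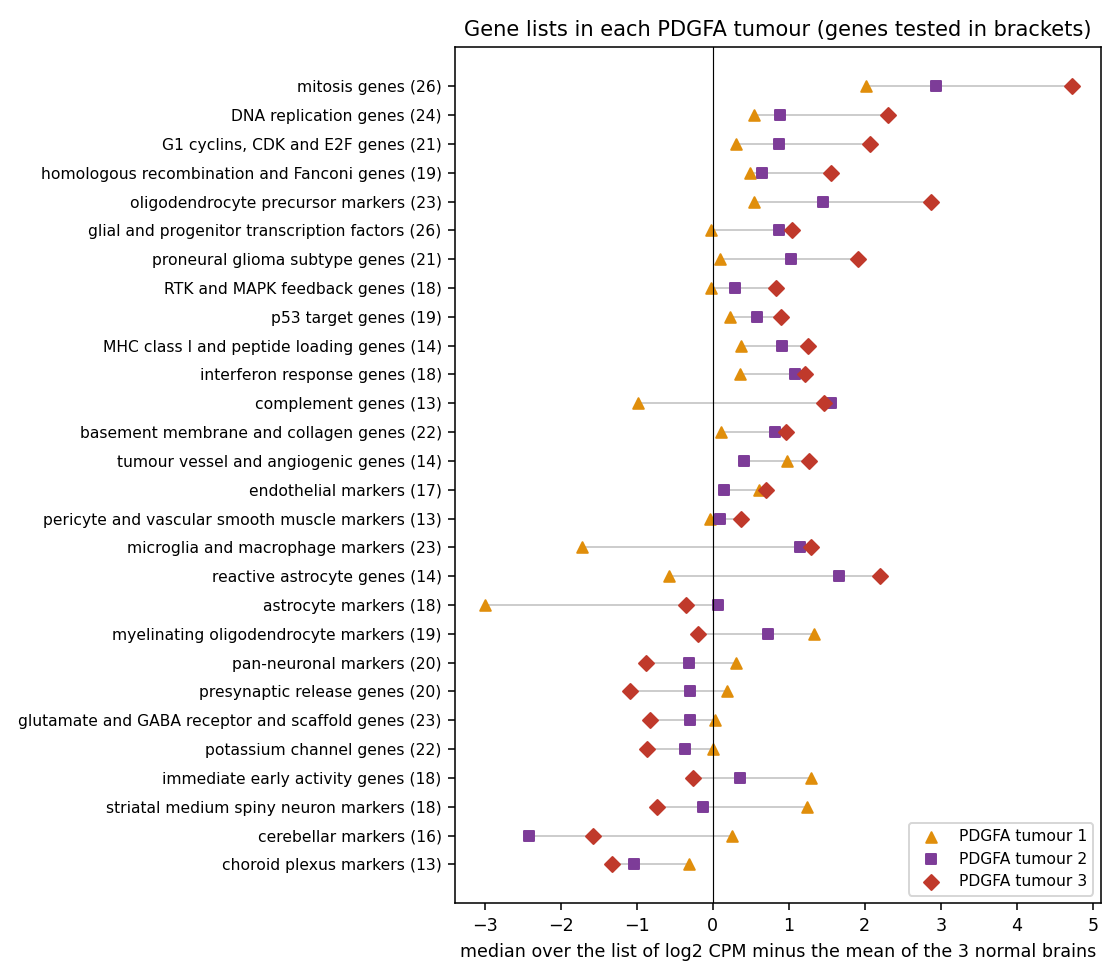
Median over each of 28 gene lists of log2 CPM minus the mean of the 3 normal brains, for PDGFA tumours 1 (orange triangle), 2 (purple square) and 3 (red diamond), with the number of genes tested in brackets. Tumour 1 lies far to the left for astrocyte (-3.0) and microglia (-1.72) markers and to the right for striatal markers (1.23), while all 3 tumours lie to the right for mitosis genes (2.02, 2.94 and 4.72).

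The tumours differed among themselves in myelin and neuron genes. None of 19 myelinating oligodendrocyte markers was called (median log2 fold change 0.83), and the median difference was 1.33, 0.72 and -0.20 in tumours 1 to 3. Mbp, myelin basic protein, was at 5923, 2877 and 1395 CPM against 1749, 1681 and 1796, with tumours 1 and 2 above the normal brains and tumour 3 below (log2 fold change 0.96 ± 0.41, edgeR adjusted p = 0.423). Cldn11, the myelin tight junction protein, was at 179.9, 234 and 99.97 CPM against 65.1, 60.9 and 73.2 without overlap (adjusted p = 0.119). None of 20 pan-neuronal markers was called (median -0.21), with differences of 0.30, -0.31 and -0.88. Rbfox3, which encodes the neuronal nuclear protein NeuN, was at 177, 105 and 76.9 CPM against 176, 174 and 167. Tumour 1 was level with the normal brains, and tumours 2 and 3 were below them.

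Markers of brain regions also differed by tumour. Of 18 markers of striatal medium spiny neurons, 17 were above every normal brain in tumour 1, 2 in tumour 2 and 0 in tumour 3, against 30.8% of all genes in tumour 1. Ppp1r1b, the signalling protein DARPP-32, was at 238, 68.8 and 46.9 CPM against 88.8, 76.9 and 67.8, and Drd1, the D1 dopamine receptor, at 66.7, 26.5 and 12.5 against 31.9, 29.4 and 18.2. Of 16 cerebellar markers all were below every normal brain in tumours 2 and 3, against 32.5% and 36.3% of all genes, and 11 were above in tumour 1. Car8, of Purkinje cells, was at 193, 18.7 and 58.3 CPM against 112, 117 and 158, and Neurod1, of granule cells, at 55.7, 7.05 and 16.9 against 43.1, 55.0 and 52.9. No gene of these lists was called with all libraries. The labels give no region for any sample, and the part of the region in the other results was not tested.

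The activity genes, switched on within minutes of neuronal firing, were highest in tumour 1. Npas4, an activity-dependent transcription factor of neurons, was at 222, 8.87 and 4.80 CPM against 15.5, 11.1 and 7.44, and Fosb at 161, 13.3 and 5.26 against 8.78, 8.67 and 7.44. Tumour 1 was above every other of these 6 libraries in both genes, and tumour 3 below every normal brain. None of 18 was called, and 17 were above all normal brains in tumour 1, against 30.8% of all genes. Jun was at 50.1, 51.7 and 59.2 CPM against 31.2, 37.8 and 32.3, alike in the 3 tumours (log2 fold change 0.67 ± 0.14, edgeR adjusted p = 0.0697).

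**Figure D4:**
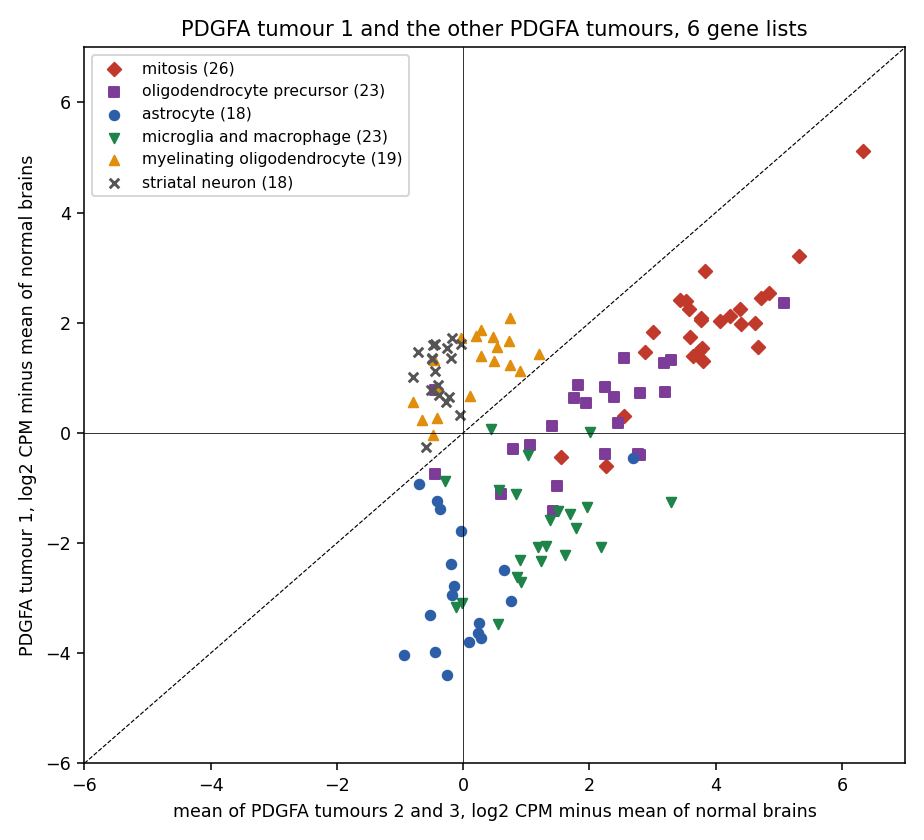
Difference from the mean of the normal brains (log2 CPM) in PDGFA tumour 1 (vertical) against the mean of tumours 2 and 3 (horizontal), 1 point per gene for 6 lists, with equal differences on the dashed line. Mitosis genes lie above 0 on both axes save 2 genes below 0 in tumour 1, astrocyte and nearly all microglia markers lie below 0 in tumour 1, and striatal markers lie mostly above 0 in tumour 1 and left of 0 in the others.

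Synaptic and channel genes had lower values in tumours 2 and 3 without a call. The median log2 fold change was -0.32 over 20 presynaptic genes, -0.36 over 23 glutamate and GABA receptor and scaffold genes and -0.36 over 22 potassium channel genes. In the receptor list 8 genes had all tumours below all normal brains (34.8%, against 7.54% of all genes). Grin2c, an NMDA receptor subunit of cerebellar granule cells and astrocytes, was at 55.0, 24.5 and 29.5 CPM against 101, 88.2 and 95.2 (log2 fold change -1.39 ± 0.36, edgeR adjusted p = 0.134). Each tumour was below each normal brain.

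The PDGFA tumours were also set against the IDH1 tumours, with equal weight on the IDH1_R132H and IDH1WT groups, which uses no normal brain. No gene was called by edgeR, with a smallest adjusted p = 0.263 and 1872 genes (10.5%) at an unadjusted p under 0.05, 1017 higher and 855 lower. DESeq2 called 142. The count was 21 without PDGFA tumour 3 and 1 without PDGFA tumour 1 (Rps3a3, singled out after its value was seen, at -5.98, adjusted p = 0.0175). None of the 54 genes called against normal brain passed here, and the median log2 fold change of the mitosis list was 0.043.

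Mbp, already described, gave 1.35 ± 0.34 (edgeR adjusted p = 0.263). A higher value at an unadjusted p under 0.05 was found in 13 of 19 myelin markers, against 1017 of all 17812 genes. Nr4a3, an activity-regulated nuclear receptor, was at 41.8, 41.2 and 30.6 CPM in the PDGFA tumours and at 16 to 23.3 CPM, with a median of 20.3, in the IDH1 tumours (log2 difference 0.93 ± 0.15). Epas1, the hypoxia-inducible factor 2 alpha, was at 109.7, 134 and 171 CPM and at 229 to 395 CPM, with a median of 321 (log2 difference -1.17 ± 0.19). Rgs5, a pericyte marker, was at 103, 94.2 and 117 CPM and at 148 to 250.4 CPM, with a median of 177 (log2 difference -0.84 ± 0.16). The rule that named these 3 genes required the PDGFA tumours to lie outside the range of the 6 IDH1 tumours. None of the 3 was called, and in each the PDGFA tumours overlapped with the normal brains. Pdgfra gave -1.44 ± 0.60 (edgeR adjusted p = 0.448), the IDH1 tumours holding 510.0 to 1564 CPM, with a median of 1002. Of 23 oligodendrocyte precursor markers 11 had a lower value in the PDGFA tumours at an unadjusted p under 0.05 and none a higher one. Over all 17812 genes 855 were lower and 1017 higher. The summed level of these markers was 1110, 2180 and 6162 CPM in PDGFA tumours 1 to 3.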

How the data were processed

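RNA of 12 libraries was sequenced from formalin-fixed tissue. Per the submitters' processing notes, STAR 2.5.2b, Subread and featureCounts 1.5.1 were used with GRCm38, and DESeq2 1.16.1. How reads were assigned by strand, or when they fit several places, and from which annotation, was not given in the sources used here, so reads of overlapping, antisense and near-identical genes could not be told apart. The authors deposited whole-number counts per gene, which were used for every result, and regularised log2 values, which served only as an alternative.

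Of 49671 genes, 42503 had a count and 49326 were named from GENCODE M21. A filter for a count of about 10 in the smallest group and 15 in total (filterByExpr) left 17812. edgeR 4.0.16 (R 4.3.3) fitted 1 coefficient per group to all 12 libraries with TMM factors and a robust quasi-likelihood, with 8 residual degrees of freedom. Over all genes the standard error had a median of 0.283 on the log2 scale. With 3 libraries a group an exact permutation test cannot go below p = 0.1, so none is given for single values.

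The members and lists were chosen with earlier results of these data known. The 55 lists held 873 symbols, of which 834 were tested. The rule named 16 set genes, the 12 genes each way with the largest called change at a mean log2 CPM of at least 3 and no overlap (filled by smallest p, and leaving out gene models, pseudogenes and genes without a symbol), the 4 members of each list with the smallest p, 5 each way against the IDH1 tumours and 5 each way by the gap between groups at the same minimum and with the same exclusions. Named outside it, after their values were seen, were Aurkb, Cdk1, Foxm1, Knl1, Prc1, Nusap1, Ccnb1, Ccnb2, Bub1b, Mcm6, Pcna, Cdk4, Clspn, Espl1, the other cell division genes on no list, Spry4, Spred1, Dusp4, Etv5, Pdgfc, Pdgfrl, Gpr17, Ptprz1, Bcan, Sox4, Sox11, B2m, Nlrc5, Cd3e, Cd3d, Cd8a, Csf1r, Pecam1, Slc7a5, Ddr1, Pnlip, Abca8a, Nlrp5-ps, Gm45426, ENSMUSG00000095041, Dusp5, A830036E02Rik, Slc1a3, Aqp4, Gja1, Ppp1r1b, Drd1, Car8, Neurod1 and Npas4.

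Alternatives were another scaling, DESeq2 1.42.0, no filter, the compared libraries alone, limma 3.58.1 on the deposited log2 values, limma voom with sample weights, and each library left out. Cases chosen after seeing the data were each IDH1 tumour left out, IDH1_R132H tumour 3 and PDGFA tumour 1 left out together, normal brains 1 and 2 summed, and PDGFA tumours 2 and 3 with the normal brains alone. 1 item of the labelled genotype is not reported here.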

Additional observations from a re-analysis of the deposited data

How the results depend on the processing

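Against normal brain, 54 genes were called, 46 higher and 8 lower, 8 of them mitosis genes, and the calls held 2.64% of the listed genes tested. DESeq2 gave 484 calls (422 higher, 62 lower), 23 of mitosis and 15.8% of listed genes. With no filter on low counts there were 958 (812 and 146), 26 and 25.2%, and the median of all genes moved to -0.05. With sample quality weights there were 439 (323 and 116), 21 and 12.7%. With only the libraries compared, with limma on the deposited log2 values, and with normal brains 1 and 2 summed there were 0 calls, 0 of mitosis and 0% of listed genes, with 1786, 1725 and 1286 genes at an unadjusted p under 0.05. Without both IDH1_R132H tumour 3 and PDGFA tumour 1 there were 990 (809 and 181), 24 and 22.1%. PDGFA tumours 2 and 3 with the normal brains alone gave 1313 (901 and 412), 24 and 26.6%. Leaving out 1 library gave 0 to 846 calls (0 to 677 higher, 0 to 169 lower), 0 to 24 of mitosis and 0 to 20.6% of listed genes. The highest values came without PDGFA tumour 1. Another scaling gave 70 (61 higher and 9 lower), with 11 of mitosis. The cause of these shifts was not tested.

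Of the 54 genes, 53 were found with the same direction on the deposited log2 values and all 54 in every other setting. The deposited log2 values hold 17779 of the 17812 genes tested. The count of 53 does not tell a gene missing there from a gene that changed direction. Against the IDH1 tumours there were 0 calls, 142 by DESeq2, 632 with no filter and 0 to 21 with 1 library left out. No paired analysis was possible because the replicate numbers follow the order of records and the labels tie no library of one group to one of another. At these depths Cdkn2a and most T cell markers had too few counts to test.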

Other observations

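Other gene groups varied among the PDGFA tumours without a call against normal brain, apart from Dll3 on the Notch list and Uhrf1 on the list of DNA methylation enzymes, both described above. Red blood cell genes differed most between tumours. The median difference of 7 tested genes from the normal brains was 1.15, 2.58 and -2.42 on log2 CPM in tumours 1 to 3, and the summed level was 419, 1093 and 62.4 CPM against 178, 209 and 301. Hbb-bs, a beta globin gene, was at 235, 767 and 17.4 CPM against 87.5, 102 and 166, so tumour 3 was the lowest of the 6 libraries and tumour 2 the highest. Choroid plexus markers (13 tested) had differences of -0.31, -1.03 and -1.33. In all 3 tumours 4 were below every normal brain (30.8%, against 7.54% of all genes). Folr1, a folate receptor of the choroid plexus, was at 0.783, 0.249 and 0.181 CPM against 1.62, 1.43 and 1.49. Fibroblast and meningeal markers (14 tested) had differences of -1.25, 0.85 and 0.24. Igfbp2, an insulin-like growth factor binding protein, was at 9.17, 23.1 and 71.3 CPM against 17.9, 10.9 and 18.6.

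Hypoxia and glycolysis genes (18 tested) differed by 0.29, 0.23 and 0.43, and 5 lay above without overlap (27.8%, against 8.23% of all genes). Hk2, hexokinase 2, was at 2.12, 10.03 and 14.3 CPM against 5.66, 4.39 and 4.46 (log2 fold change 0.88 ± 0.52, edgeR adjusted p = 0.597). Cholesterol and fatty acid synthesis genes (21 tested) differed by 0.26, 0.05 and 0.14. Among them Dhcr7, the last enzyme of cholesterol synthesis, was at 28.2, 23.7 and 29.5 CPM against 18.2, 21.2 and 18.1 (log2 fold change 0.50 ± 0.18, adjusted p = 0.299). Cytoplasmic ribosomal protein genes (30 tested) differed by -0.16, 0.22 and 0.55. Hedgehog pathway genes (12 tested) differed by -0.85, -0.15 and -0.20. Boc, a coreceptor of Sonic hedgehog, was at 27.1, 17.6 and 20.8 CPM against 36.7, 38.5 and 43.2 (log2 fold change -0.86 ± 0.22, adjusted p = 0.125). Genes for EGFR and ErbB signalling, axon guidance, the TCA cycle, ATRX and its partners, and MHC class II had list medians between -0.097 and 0.18 as log2 fold changes.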
